A study of Rattus norvegicus with 16 samples.

Results

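The 6 genes described here are used as markers of astrocytes: Gfap (ENSRNOG00000002919), Vim (ENSRNOG00000018087), Aqp4 (ENSRNOG00000016043), S100b (ENSRNOG00000001295), Slc1a2 (ENSRNOG00000005479) and Slc1a3 (ENSRNOG00000016163). They were taken by gene ID from a count table of 32754 Ensembl IDs. All 6 were in the table and passed the filter on low counts, which left 15035 genes. The table lists IDs without symbols, and the symbols used here come from the list that named the 6 IDs. The counts are from bulk poly(A) RNA sequencing of hippocampus from wild-type male rats of the inbred strain Fischer-344. Each group of the study had 10 rats, and 4 of them per group were taken for sequencing, with 1 library per rat. Young rats are labelled as 6 months old and old rats as 20 months old, and rats of each age stayed sedentary or were exercise trained for 10 weeks. Rats of all groups also went through behavioral tests, and hippocampi were collected 2 days after these ended. The study set age against training, and whether the 2 act differently together is the interaction of the design.

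Astrocytes are glial cells that clear glutamate from synapses, move water and potassium around blood vessels and change their cytoskeleton in response to injury and age. In the hippocampus their fine processes wrap the synapses of the pyramidal and granule neurons. Gfap and Vim encode the intermediate filament proteins GFAP and vimentin, and raised GFAP is the usual sign of a reactive astrocyte. Aqp4 encodes aquaporin-4, the water channel of the endfeet on brain capillaries. S100b encodes a small calcium-binding protein that astrocytes also release. Slc1a2 and Slc1a3 encode the glutamate transporters GLT-1 and GLAST. None of these genes is strictly limited to astrocytes, since vimentin is also made by vascular and ependymal cells and S100b by cells of the oligodendrocyte lineage. In bulk tissue, fewer cells of a type and less RNA per cell cannot be told apart. Markers of other cell types were not analysed here, because no table used here pairs the IDs with symbols, so the labelled tissue was not checked against them and the part of other cells in the results was not tested.

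Library totals ran from 8630396 to 14576687 counts. Each of the 6 genes was well covered in every library, with a lowest count of 614 for Vim and a highest of 23588 for S100b. A count of 614 has a Poisson counting error of 4.04%. The fitted biological coefficients of variation ran from 8.52% for Slc1a3 to 18.0% for Vim, so the spread between libraries exceeded that error. Levels are given in CPM, the counts of a gene relative to all counts of its library, after scaling by the trimmed mean of M-values (TMM). They are compared between groups and not between genes, since a count also grows with transcript length. On the first principal component of all tested genes, which held 46.9% of the variance, old sedentary replicates 1, 2 and 4 lay between 49.7 and 55.9. Old sedentary replicate 3 lay at 12.7, young sedentary libraries lay between 0.692 and 29.3, and the 8 trained libraries lay between -39.8 and -18.9. Results that rest on old sedentary replicates 1, 2 and 4 are therefore also given without them. That leaves 1 old sedentary library, which is assumed to vary like the libraries of the other groups. Without those libraries, only sizes of change are given and no p-values. The 3 were picked as the farthest from the trained libraries on this component, while replicate 3 was the one apart from its own group. Removing the 3 therefore tends to shrink differences that follow this component.

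Over both ages, trained rats had less Vim and less Aqp4 transcript and more Slc1a2 and Slc1a3 transcript than sedentary rats. Gfap and S100b did not pass the test. Thus 4 of the 6 genes were called (2 higher and 2 lower) by edgeR's quasi-likelihood test at an adjusted p below 0.05, where 33.9% of all 15035 genes were called. The median size of the log2 fold change was 0.35 over the 6 genes and 0.17 over all tested genes. Over both training states, old rats had more S100b and less Slc1a2 and Slc1a3 transcript than young rats. That made 3 of the 6 genes called for age, where 10.5% of all genes were called. That share was 6.26% without young sedentary replicate 3 and 16.2% without old sedentary replicate 3.

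**Figure D1:**
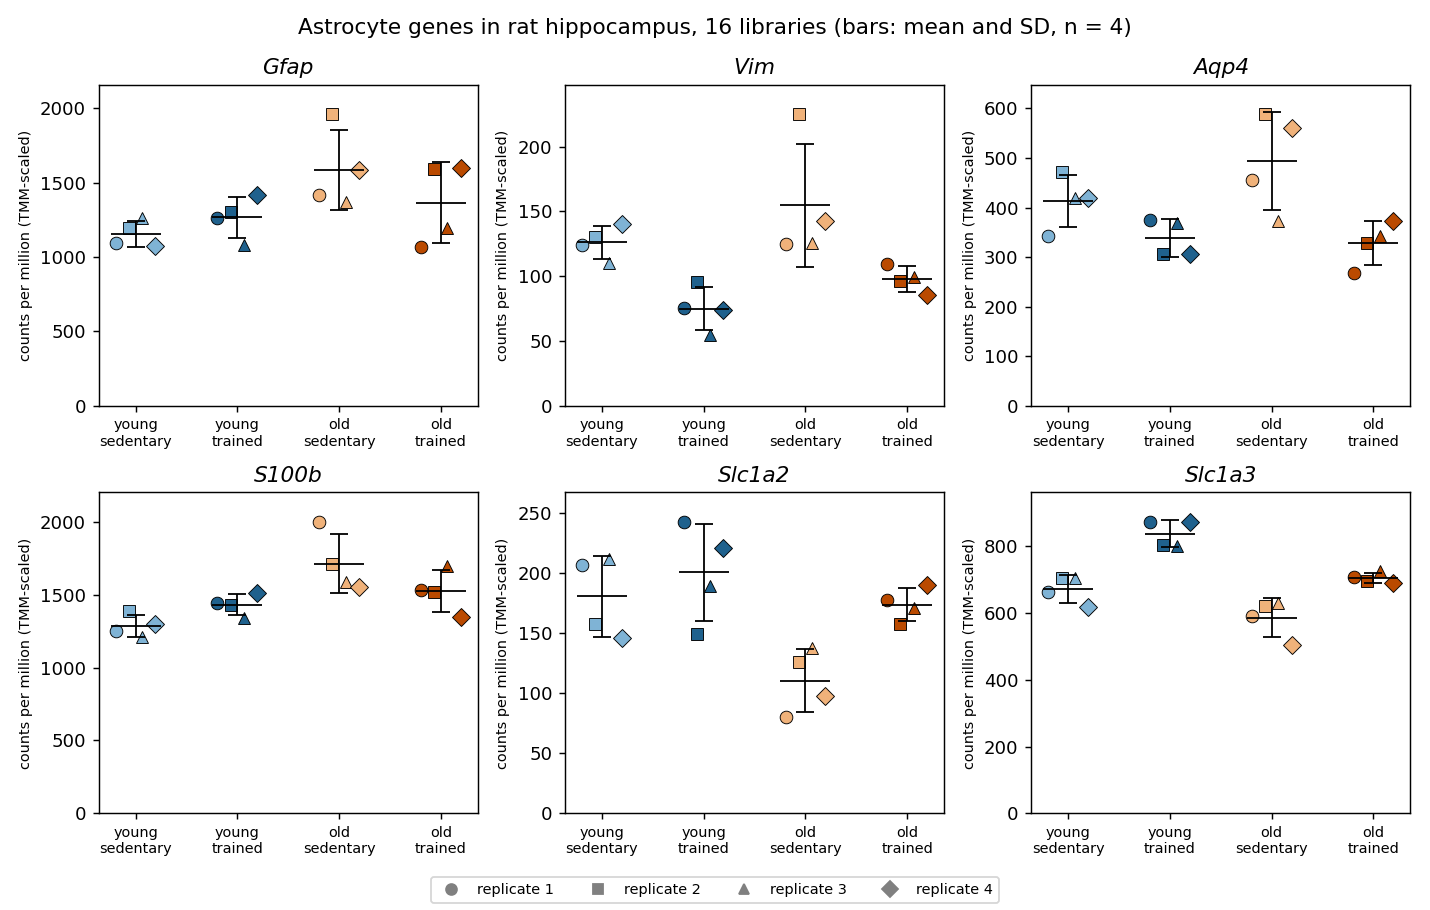
Level of each gene in CPM (vertical axis, starting at 0) in the 4 groups (horizontal axis), with 1 point per library, marker shapes for replicate numbers, and the mean and SD of 4 libraries as bars. Vim is lower in all 8 trained libraries, between 54.9 and 109.5 CPM, than in any sedentary library, and Slc1a3 is highest in young trained rats, with a mean of 838 CPM.

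The 2 filament genes did not move alike with training. Gfap stood at 1097, 1194, 1259 and 1075 CPM in young sedentary replicates 1 to 4 and at 1259, 1303, 1082 and 1417 CPM in young trained replicates. In old sedentary replicates 1 to 4 it stood at 1416, 1959.7, 1367 and 1582 CPM, and in old trained replicates at 1069, 1591, 1194 and 1598 CPM. Young sedentary libraries were thus the lowest on average, every old sedentary library lay above all of them, and each of the other pairs of groups that differ in 1 factor overlapped. The averaged log2 fold change of Gfap for training was -0.04 (SE 0.10, 95% interval -0.25 to 0.16, edgeR adjusted p = 0.769). The interval corresponds to levels between 0.843 and 1.12 times those of sedentary rats, and a change within it was not detectable with 8 rats against 8. Its sign depended on the libraries used, as the value was 0.06 without old sedentary replicates 1, 2 and 4. Within ages the log2 fold changes for training were 0.13 (SE 0.14) in young and -0.21 (SE 0.14) in old rats, with edgeR adjusted p = 0.531 and 0.289. The value in old rats was -7.8e-05 without old sedentary replicates 1, 2 and 4.

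Gfap was higher in old sedentary than in young sedentary rats without passing the test. The means were 1581 ± 268 CPM (SD, n = 4) against 1156 ± 86.1 CPM (SD, n = 4), which is 0.45 on the log2 scale (SE 0.14, edgeR adjusted p = 0.0873). The averaged age difference was 0.28 (SE 0.10, edgeR adjusted p = 0.0746). Both values lay outside the threshold, and the alternatives moved them both ways. The values were 0.24 in sedentary rats and 0.18 for the average without old sedentary replicates 1, 2 and 4. With 2 surrogate variables they were 0.36 (edgeR adjusted p = 0.943) and 0.31 (edgeR adjusted p = 0.152). With each single library left out, the edgeR adjusted p in sedentary rats ran from 0.0253 to 0.211. Without old sedentary replicate 3 the edgeR adjusted p-values were 0.0253 in sedentary rats and 0.0393 for the average. The latter was 0.0473 without old trained replicate 1. By DESeq2 the adjusted p in sedentary rats was 0.0371, and limma voom gave adjusted p = 0.0273 for the average. In trained rats the age difference of Gfap was 0.11 (SE 0.14, edgeR adjusted p = 0.681).

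Vim was lower in every trained library than in every sedentary library. In young sedentary replicates 1 to 4 it stood at 124, 131, 110.4 and 141 CPM, and in young trained replicates at 75.3, 95.5, 54.9 and 73.7 CPM. Old sedentary replicates stood at 125, 225, 126 and 143 CPM and old trained replicates at 109.5, 96.4, 99.4 and 85.7 CPM. The gap between the 8 trained and the 8 sedentary libraries was narrow, from 109.5 CPM in old trained replicate 1 to 110.4 CPM in young sedentary replicate 3. Groups that do not overlap in this way were found for 4.51% of all tested genes. Averaged over age, Vim fell by 38.9% with training, with a log2 fold change of -0.71, an SE of 0.13 and an edgeR adjusted p of 0.000709. It fell by 40.8% in young rats (log2 fold change -0.76, SE 0.18, edgeR adjusted p = 0.0126) and fell by 36.9% in old rats (log2 fold change -0.66, SE 0.18, edgeR adjusted p = 0.0155).

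The fall of Vim in old rats rested partly on single libraries. Old sedentary replicate 2, at 225 CPM, was the highest of all 16 libraries. Without that library the averaged value was still called, and over all 16 libraries left out in turn the averaged log2 fold change stayed between -0.76 and -0.59. In old rats the range was wider, from -0.75 to -0.43, where -0.43 is the value without old sedentary replicate 2 and was still called. The edgeR adjusted p in old rats was 0.0510 without old trained replicate 4 (log2 fold change -0.60). The averaged change was -0.56 and that in old rats -0.36 without old sedentary replicates 1, 2 and 4. With age the averaged log2 fold change of Vim was 0.34 (SE 0.13, edgeR adjusted p = 0.107), with values of 0.29 in sedentary and 0.38 in trained rats, and none of these was called. Without old sedentary replicate 2 the value in sedentary rats was 0.053 and the average 0.22, and without young trained replicate 3 the value in trained rats was 0.24.

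The ratio of Gfap to Vim counts within a library does not depend on how libraries are scaled to each other. Its log2 values were 3.15, 3.19, 3.51 and 2.93 in young sedentary replicates 1 to 4 and 4.06, 3.77, 4.30 and 4.26 in young trained replicates. In old sedentary replicates they were 3.50, 3.12, 3.44 and 3.47, and in old trained replicates 3.29, 4.04, 3.59 and 4.22. All young trained libraries lay above all young sedentary ones, while old trained replicate 1 lay within the old sedentary range. Trained libraries exceeded sedentary ones by 0.65 on average, by 0.90 in young and 0.40 in old rats (exact permutation within age, 2-sided, p = 0.00286, adjusted p = 0.0147 over 6 ratio tests). For age the averaged difference was -0.06 (exact permutation p = 0.692, adjusted p = 0.692). Without old sedentary replicates 1, 2 and 4 the training difference was 0.62.

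The windows before the annotated starts of the 2 filament genes are shown because their transcripts moved differently with training. They hold the 250 bases before each start in RefSeq, build GRCr8, which is a later build than the one used for the counts. All 6 genes had at least 1 window in that table, and those of 4 genes are printed in this text, each at the start of the gene as annotated there. Capitals mark CG dinucleotides.
Gfap (chr10:88361662-88361911, minus strand): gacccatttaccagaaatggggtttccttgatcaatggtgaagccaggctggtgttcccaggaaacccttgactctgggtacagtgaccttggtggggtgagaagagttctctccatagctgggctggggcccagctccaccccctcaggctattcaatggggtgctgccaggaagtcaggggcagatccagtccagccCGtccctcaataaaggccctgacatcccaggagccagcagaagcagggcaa
Vim (chr17:81577011-81577260, plus strand): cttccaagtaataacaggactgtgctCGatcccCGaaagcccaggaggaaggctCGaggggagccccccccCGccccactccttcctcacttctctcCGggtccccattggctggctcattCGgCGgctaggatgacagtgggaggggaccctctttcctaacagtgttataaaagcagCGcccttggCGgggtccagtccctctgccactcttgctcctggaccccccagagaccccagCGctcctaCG
The window of Gfap held 1 CG dinucleotide and 57.6% G and C, and that of Vim held 11 CG dinucleotides and 62.4% G and C. Over all 33469 windows of this length in the table the medians were 5 CG dinucleotides and 51.2%. The motif TATAAA, the motif CCAAT and the motif GGGCGG were searched on both strands. The window of Vim held each of them, with TATAAA on the gene's own strand starting 82 bases before the start, and that of Gfap held none of the 3 motifs. Among all windows 12.9% held TATAAA, 34.0% held CCAAT and 30.5% held GGGCGG, so such matches are common and say nothing by themselves about factor binding.

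Aqp4 was lower in trained rats, with a difference that passed the test in old rats and in the average. Young sedentary replicates 1 to 4 stood at 343.5, 472, 418 and 420.3 CPM and young trained replicates at 374, 306, 369 and 307 CPM. Old sedentary replicates stood at 456, 589, 374 and 559.6 CPM and old trained replicates at 267, 329, 343 and 373 CPM. The old groups did not overlap, but only by the gap between 374 CPM in old sedentary replicate 3 and 373 CPM in old trained replicate 4, and the young groups overlapped. Averaged over age, Aqp4 fell by 26.3% (log2 fold change -0.44, SE 0.10, edgeR adjusted p = 0.00270). In old rats the log2 fold change was -0.59 (SE 0.14, edgeR adjusted p = 0.00662) and in young rats -0.29 (SE 0.14, edgeR adjusted p = 0.159). The difference between these effects was -0.30 (95% interval -0.72 to 0.11, edgeR adjusted p = 0.501). Old sedentary replicates 1, 2 and 4 held the highest Aqp4 levels of the old sedentary group. Without them the values were -0.24 for the average and -0.18 in old rats.

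With age Aqp4 differed by 0.11 on average (SE 0.10, edgeR adjusted p = 0.527), by 0.26 in sedentary rats (SE 0.14, edgeR adjusted p = 0.318) and by -0.05 in trained rats (SE 0.14, edgeR adjusted p = 0.883). None of these was called. The averaged interval of -0.10 to 0.31 covers levels from 0.931 to 1.24 times those of young rats. Ordered by mean (± SD, n = 4 each), old sedentary rats came first at 494 ± 98.7 CPM and young sedentary rats next at 414 ± 52.9 CPM. Young trained rats followed at 339 ± 37.7 CPM and old trained rats at 328 ± 44.4 CPM. The ranges of each pair of neighbours in this order overlapped.

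S100b was higher in old rats and showed no called difference with training. Young sedentary replicates 1 to 4 stood at 1251, 1387, 1211 and 1298 CPM and old sedentary replicates at 2000.2, 1711, 1586 and 1553 CPM, with no overlap. Young trained replicates stood at 1442, 1431, 1337 and 1514 CPM and old trained replicates at 1530.5, 1520.1, 1696.5 and 1345 CPM, which overlapped. Averaged over training, S100b rose by 19.0% with age (log2 fold change 0.25, SE 0.06, edgeR adjusted p = 0.0202). In sedentary rats the rise was 33.1% (log2 fold change 0.41, SE 0.09, edgeR adjusted p = 0.0321), and in trained rats the value was 0.09 (SE 0.09, edgeR adjusted p = 0.586). S100b was the 1 gene of the 6 called for age in sedentary rats, where 1.51% of all genes were called. That share depended on single libraries, as it was 0.29% and 0.25% without young sedentary replicates 1 and 3, 0.297%, 0.628% and 0.383% without old sedentary replicates 1, 2 and 4, and 13.2% without old sedentary replicate 3. Leaving out old trained replicate 2 gave 0.851%, and leaving out young trained replicate 1 gave 0.937%. By overlap, the groups were separate in sedentary rats for 3 of the 6 genes (Gfap, S100b and Slc1a2) and for 7.93% of all genes.

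The age calls of S100b were sensitive to single libraries. In sedentary rats the edgeR adjusted p was 0.117, 0.144 and 0.0615 without young sedentary replicates 1, 3 and 4, 0.0997 and 0.0682 without old sedentary replicates 1 and 2, 0.0525 without old trained replicate 2 and 0.0536 without young trained replicate 1. A fit to the 8 sedentary libraries alone gave 0.42 with an edgeR adjusted p of 0.163. The average was not called without young sedentary replicate 3 (edgeR adjusted p = 0.0592) or old trained replicate 3 (edgeR adjusted p = 0.0555). The averaged log2 fold change was 0.20 and that in sedentary rats 0.30 without old sedentary replicates 1, 2 and 4. The sizes thus moved less than the p-values: with 1 library left out, the fold change in sedentary rats stayed between 0.33 and 0.46.

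For training, the averaged log2 fold change of S100b was -0.01 (SE 0.06, 95% interval -0.14 to 0.13, edgeR adjusted p = 0.935), which covers levels from 0.906 to 1.09 times those of sedentary rats. The sign of so small a value changed with the scaling and with the libraries used. The values were 0.15 in young rats (SE 0.09, edgeR adjusted p = 0.243) and -0.17 in old rats (SE 0.09, edgeR adjusted p = 0.193), the latter being -0.055 without old sedentary replicates 1, 2 and 4. Their difference, -0.32 (SE 0.13), had an unadjusted p of 0.0216 in edgeR and an adjusted p of 0.314.

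Both glutamate transporter genes were higher in trained rats and lower in old rats. Slc1a3 was the steadier of the pair. It stood at 664, 707, 705 and 619 CPM in young sedentary replicates 1 to 4 and at 874, 805, 800.3 and 874 CPM in young trained replicates. Old sedentary replicates stood at 591, 621, 632 and 504 CPM and old trained replicates at 710.0, 696, 726 and 690.3 CPM. Trained libraries lay above sedentary libraries of the same age without overlap at both ages, and the smallest SD of any gene and group was that of Slc1a3 in old trained rats relative to its mean, at 2.23%. Averaged over age, Slc1a3 rose by 22.3% with training (log2 fold change 0.29, SE 0.05, edgeR adjusted p = 0.000649). The rise was 24.4% in young rats (log2 fold change 0.32, SE 0.08, edgeR adjusted p = 0.0110) and 20.2% in old rats (log2 fold change 0.27, SE 0.08, edgeR adjusted p = 0.0176). The difference between the ages was -0.05 (95% interval -0.28 to 0.18, edgeR adjusted p = 0.857).

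The rise of Slc1a3 over both ages was called in each setting tried except that with 2 surrogate variables. In old rats it was not called without old sedentary replicate 4 (log2 fold change 0.20, edgeR adjusted p = 0.0541), with scaling by library totals only (0.20, edgeR adjusted p = 0.0590) or in a fit to the 8 old libraries alone (0.26, edgeR adjusted p = 0.0702). Without old sedentary replicates 1, 2 and 4 the averaged value was 0.23 and that in old rats 0.16. With age, Slc1a3 fell by 14.4% on average (log2 fold change -0.22, SE 0.05, edgeR adjusted p = 0.0148). The values were -0.20 in sedentary rats (SE 0.08, edgeR adjusted p = 0.152) and -0.25 in trained rats (SE 0.08, edgeR adjusted p = 0.0667). In trained rats the young and old libraries did not overlap, as for 17% of all genes. The averaged age value was -0.17 and that in sedentary rats -0.097 without old sedentary replicates 1, 2 and 4.

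Slc1a2 stood at 207, 158, 212 and 146 CPM in young sedentary replicates 1 to 4 and at 243, 149.9, 189.8 and 221 CPM in young trained replicates. Old sedentary replicates stood at 80.4, 126, 138 and 98.2 CPM and old trained replicates at 178, 158, 171 and 190.1 CPM. The 4 old sedentary libraries were the lowest of all 16 libraries, with a mean of 111 ± 26.1 CPM (SD, n = 4), and the other 3 groups overlapped one another. In old rats Slc1a2 rose by 57.3% with training (log2 fold change 0.65, SE 0.17, edgeR adjusted p = 0.0136). In young rats the value was 0.15 (SE 0.17, edgeR adjusted p = 0.562), and the difference between the ages was 0.50 (95% interval -0.02 to 1.02, edgeR adjusted p = 0.385). Averaged over age the rise was 32.3% (log2 fold change 0.40, SE 0.12, edgeR adjusted p = 0.0187). Without old sedentary replicates 1, 2 and 4 the averaged value was 0.24 and that in old rats 0.34.

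Averaged over training, Slc1a2 fell by 27.2% with age (log2 fold change -0.46, SE 0.12, edgeR adjusted p = 0.0277). In sedentary rats the value was -0.71 (SE 0.17, edgeR adjusted p = 0.0555), outside the threshold, and in trained rats -0.21 (SE 0.17, edgeR adjusted p = 0.504). The averaged call was lost on leaving out any 1 of 7 libraries. The edgeR adjusted p was 0.0564 and 0.0595 without young sedentary replicates 1 and 3, 0.0513 and 0.0568 without young trained replicates 1 and 4, 0.0573 without old sedentary replicate 4, and 0.0509 and 0.0513 without old trained replicates 2 and 3. Its fold change stayed between -0.52 and -0.40 with 1 library left out, and was -0.30 without old sedentary replicates 1, 2 and 4. In sedentary rats the edgeR adjusted p was 0.0499 without young sedentary replicate 4, 0.0445 without young trained replicate 2 and 0.00661 without old sedentary replicate 3, and the DESeq2 Wald test gave an adjusted p of 0.00536. In the other direction, the value was -0.39 without old sedentary replicates 1, 2 and 4. It was -0.33 (edgeR adjusted p = 0.943) with 2 surrogate variables, and the edgeR adjusted p reached 0.185 with a single library left out.

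The windows before the starts of the transporter genes are shown because these genes moved in the same directions, and the windows were built unlike each other. Capitals mark CG dinucleotides.
Slc1a2 (chr3:109459859-109460108, plus strand): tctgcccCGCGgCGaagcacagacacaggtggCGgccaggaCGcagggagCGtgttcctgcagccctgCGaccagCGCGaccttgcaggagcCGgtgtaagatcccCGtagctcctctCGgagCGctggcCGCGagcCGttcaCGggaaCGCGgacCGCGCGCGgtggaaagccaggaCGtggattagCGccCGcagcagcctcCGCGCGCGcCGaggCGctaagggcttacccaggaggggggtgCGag
Slc1a3 (chr2:59557809-59558058, minus strand): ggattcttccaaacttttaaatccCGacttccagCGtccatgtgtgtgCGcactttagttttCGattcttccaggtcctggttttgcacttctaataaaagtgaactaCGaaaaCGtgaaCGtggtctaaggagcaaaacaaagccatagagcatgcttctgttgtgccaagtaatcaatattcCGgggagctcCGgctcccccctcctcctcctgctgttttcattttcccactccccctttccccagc
The window of Slc1a2 held 33 CG dinucleotides and 71.2% G and C, and 3.60% of all windows held as many CG dinucleotides. That of Slc1a3 held 9 CG dinucleotides and 48% G and C. Neither held any of the 3 motifs on either strand. The table lists 2 windows for Slc1a2 and 3 for Slc1a3, and which start these hippocampi used was not measured.

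Within libraries, the log2 ratio of Slc1a2 to Slc1a3 counts (mean ± SD, n = 4 each) was -1.91 ± 0.24 in sedentary and -2.08 ± 0.25 in trained rats of young age. In old rats it was -2.43 ± 0.30 without training and -2.02 ± 0.12 with it. All old sedentary libraries, between -2.88 and -2.20, lay below all old trained libraries, between -2.14 and -1.86, while the young groups overlapped. Neither the training difference of 0.12 (exact permutation p = 0.411, adjusted p = 0.493) nor the age difference of -0.23 (exact permutation p = 0.122, adjusted p = 0.184) passed the test over both strata. These differences were 0.0030 and -0.11 without old sedentary replicates 1, 2 and 4. The ratio of Gfap to Slc1a2 set a filament gene against a transporter gene. Its log2 values were 4.14, 3.96, 3.31 and 4.01 in old sedentary replicates 1 to 4, against 2.41, 2.92, 2.57 and 2.88 in young sedentary replicates. In old trained replicates they were 2.59, 3.33, 2.81 and 3.07, and in young trained replicates 2.37, 3.12, 2.51 and 2.68. Old exceeded young libraries by 0.72 on average, by 1.16 in sedentary and 0.28 in trained rats (exact permutation within training state, 2-sided, p = 0.00490, adjusted p = 0.0147). Trained were below sedentary libraries by -0.46 on average, by -0.02 in young and -0.90 in old rats (exact permutation p = 0.0392, adjusted p = 0.0784). Without old sedentary replicates 1, 2 and 4 these differences were 0.45 for age and -0.19 for training. The 6 ratio tests share genes and libraries, so they are not independent of each other.

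**Figure D2:**
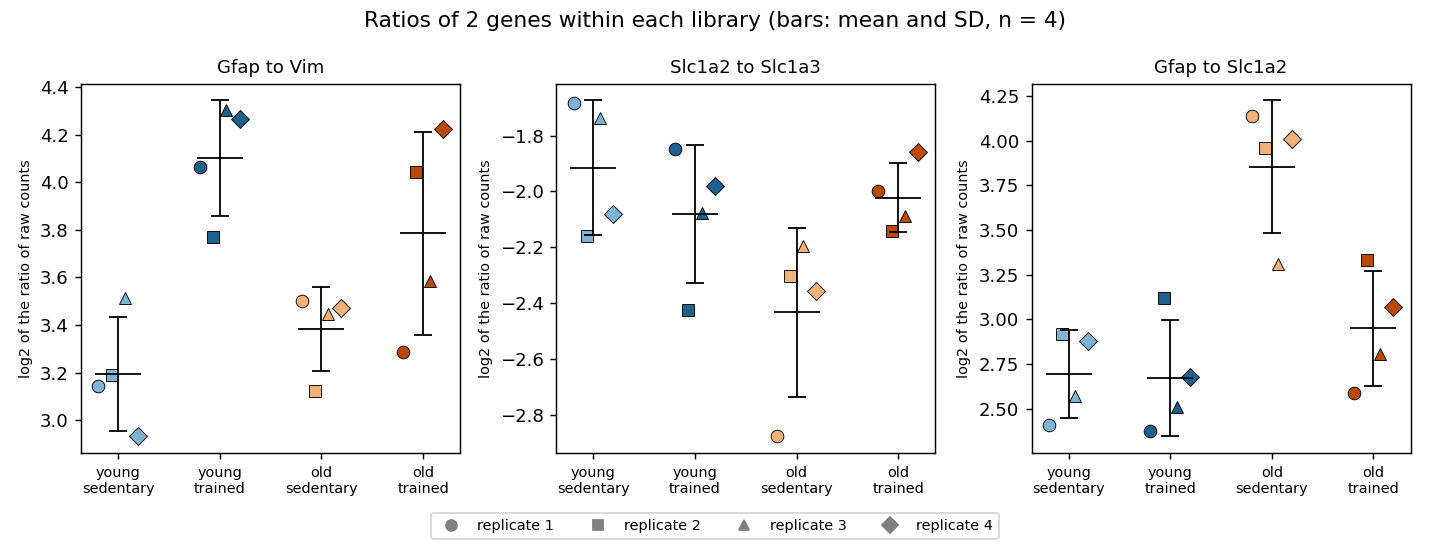
Log2 ratio of the raw counts of 2 genes within each library (vertical axes, each with its own range that does not start at 0) in the 4 groups (horizontal axis), with 1 point per library and the mean and SD of 4 libraries as bars. The Gfap to Vim ratio is highest in young trained rats, with a mean of 4.10, and the Gfap to Slc1a2 ratio is highest in old sedentary rats, with a mean of 3.85.

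Counted by age and training state, training was called for 2 of the 6 genes in young rats (Vim lower, Slc1a3 higher) and for 4 of the 6 in old rats (Vim and Aqp4 lower, Slc1a2 and Slc1a3 higher). Over all genes the share called was 17.1% at young and 24.1% at old age. The former was 8.5% without young sedentary replicate 4 and 9.06% without young trained replicate 4. The latter was 29.7% without old sedentary replicate 3 and 17.4% without old sedentary replicate 2, with the same 4 genes called in each. The groups did not overlap for the same 2 genes at young age, as for 25.2% of all genes, and for the same 4 genes at old age, as for 21.1% of all genes. Between all 8 young and all 8 old libraries 0 of the 6 genes were separate, against 0.399% of all genes. Gene by gene, a call in old and not in young rats does not show that the effects differed. The interaction of age and training was called for 0 of the 6 genes and for 0% of all genes by edgeR, while 2033 of all genes and 1 of the 6 genes (S100b) had an unadjusted p under 0.05. By the Wald test of DESeq2 36 interactions were called and by limma voom 0, with 0 of the 6 genes in either. The count over all genes rested on 1 library: without old sedentary replicate 3 edgeR called 582 interactions (3.84%), and 0 of the 6 genes were among them. Without young trained replicate 3 it called 5. For the 2 filament genes the fitted interactions were -0.34 for Gfap (SE 0.19, edgeR adjusted p = 0.442) and 0.09 for Vim (SE 0.26, edgeR adjusted p = 0.891). Without old sedentary replicates 1, 2 and 4 the interactions were -0.12 for Gfap, 0.41 for Vim and 0.11 for Aqp4. They were -0.20 for S100b, 0.20 for Slc1a2 and -0.14 for Slc1a3.

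In trained rats, age was called for 0 of the 6 genes by edgeR, where 4.98% of all genes were called. Leaving out 1 library moved that share by over 1.5 times for 6 of the 8 trained libraries (young 1, 2 and 4 and old 1, 2 and 3), down to 1.56% without young trained replicate 4. Slc1a3 was the 1 gene of the 6 with an unadjusted p under 0.05 in edgeR, which 3407 of all 15035 genes had. The DESeq2 Wald test called Slc1a3 (adjusted p = 0.0122), with 8.23% of all genes. Limma voom called it too (adjusted p = 0.0217), with 8.97% of all genes. It was also called by edgeR without young trained replicate 3 (adjusted p = 0.0464) and without old sedentary replicate 4 (adjusted p = 0.0322). The comparisons of age in sedentary rats and of training in old rats share the old sedentary libraries. For Slc1a2 these comparisons gave -0.71 and 0.65, for Slc1a3 -0.20 and 0.27, for Aqp4 0.26 and -0.59, and for Gfap 0.45 and -0.21. Opposite signs within such a pair are therefore not independent of each other.

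**Figure D3:**
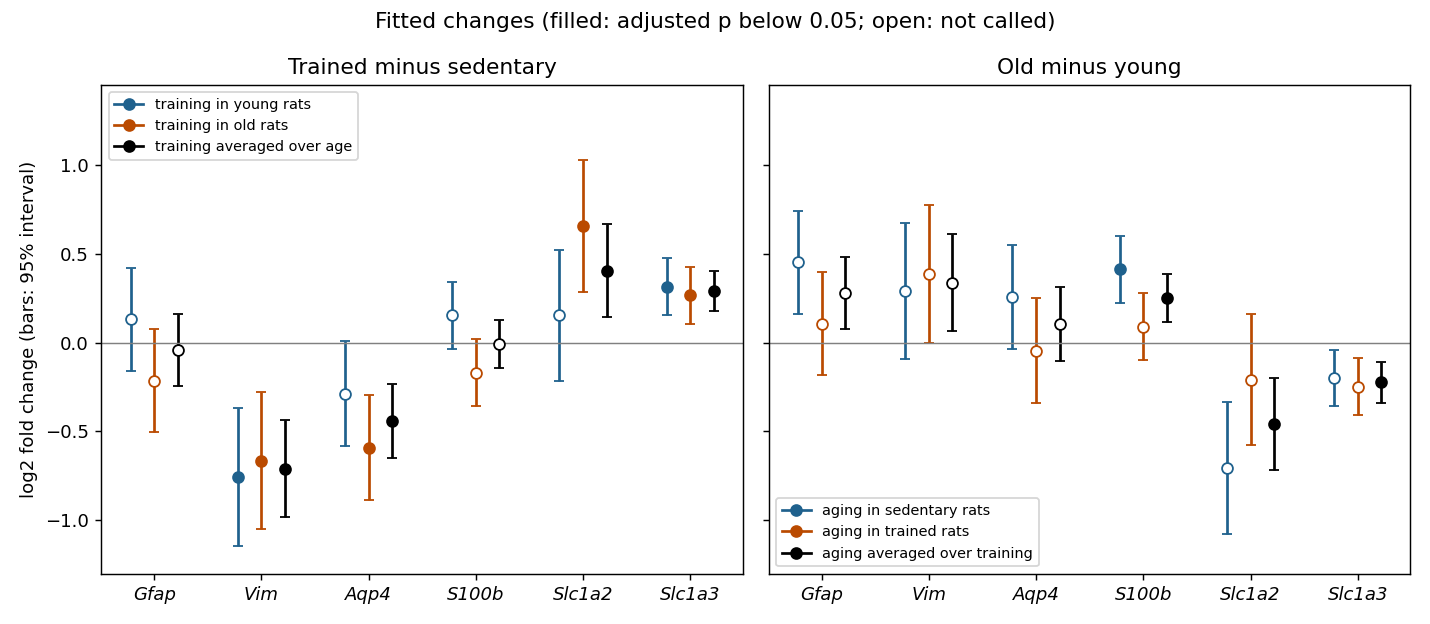
Fitted log2 fold changes (vertical axis) of the 6 genes (horizontal axis) for trained minus sedentary rats (left) and old minus young rats (right), with 95% intervals as bars and filled symbols where the adjusted p was below 0.05. Vim lies below 0 and Slc1a3 above 0 for training at both ages, and S100b is above 0 and both transporters are below 0 for age on average.

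How closely the genes moved together from rat to rat is given by Pearson r of log2 CPM over the 16 libraries. It is a description, because group differences enter it and all genes share the same libraries and scaling. The transporter genes had r = 0.78 with each other, and r = 0.54 for deviations from the group means. Among the 13386 genes compared with Slc1a2, Slc1a3 ranked 721 by r. Gfap had r = 0.38 with Vim, 0.49 with Aqp4 and 0.45 with S100b, and for deviations from the group means 0.34, 0.51 and -0.18. Vim and Slc1a3 had r = -0.74, which was 0.07 for deviations from the group means. Their opposite course was thus seen between groups, and with 16 libraries the r within groups is imprecise. Of the 13386 genes, 0 had r above 0.9 with Gfap, 37 with Vim, 9 with Aqp4, 3 with S100b, 47 with Slc1a2 and 129 with Slc1a3. Outside the 6 genes, that most like Gfap was ENSRNOG00000046195 (r = 0.83, Spearman rho = 0.76, r = 0.76 for deviations from the group means). That most like Slc1a2 was ENSRNOG00000028630, with r = 0.94, rho = 0.90 and r = 0.88 for deviations. Its own mean level (± SD, n = 4 each) was 7.20 ± 1.61 CPM in old sedentary rats, against 9.41 ± 1.11 CPM in young sedentary rats. Trained rats had 10.5 ± 1.27 CPM at young and 10.0 ± 1.30 CPM at old age. ENSRNOG00000046195 had group means from 4.31 CPM in young sedentary to 5.34 CPM in old sedentary rats. By rho, and by deviations from the group means, other genes ranked first for both Gfap and Slc1a2. Each named gene is the highest of those compared, so its r is high partly by that choice.

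Surrogate variables, estimated from the counts to hold variation that the groups do not explain, bear on all 6 genes. With 1 such variable, taken from genes at a mean log2 CPM of 1 or more, the same 4 genes were called for training over age and the same 3 for age over training. With 2 such variables 0 of the 6 genes were called in any comparison, where at most 5.32% of all genes were called (training in young rats). The first of the 2 overlapped the groups, which explained 70.4% of its variance, so that variable and the groups cannot be fully told apart. In that fit the averaged training change was -0.59 for Vim (SE 0.20, edgeR adjusted p = 0.155), -0.03 for Aqp4 (SE 0.11, edgeR adjusted p = 0.928), 0.06 for Slc1a2 (SE 0.16, edgeR adjusted p = 0.896) and 0.20 for Slc1a3 (SE 0.09, edgeR adjusted p = 0.241). The share of all genes called for training was then 2.39%. Aqp4 and Slc1a2 thus lay near 0 in that fit, while Vim and Slc1a3 kept their direction with larger errors than without these variables. For age over training, S100b had 0.24 (edgeR adjusted p = 0.0764), Slc1a2 -0.32 (edgeR adjusted p = 0.151) and Slc1a3 -0.18 (edgeR adjusted p = 0.117). These 2 settings were added after the data were seen. In the setting with 2, the first variable was most negative in old sedentary replicates 1, 2 and 4 (-0.45, -0.43 and -0.49). Young sedentary replicate 2 came next (-0.22). That setting and the removal of these 3 old sedentary libraries are therefore not independent of each other.

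**Figure D4:**
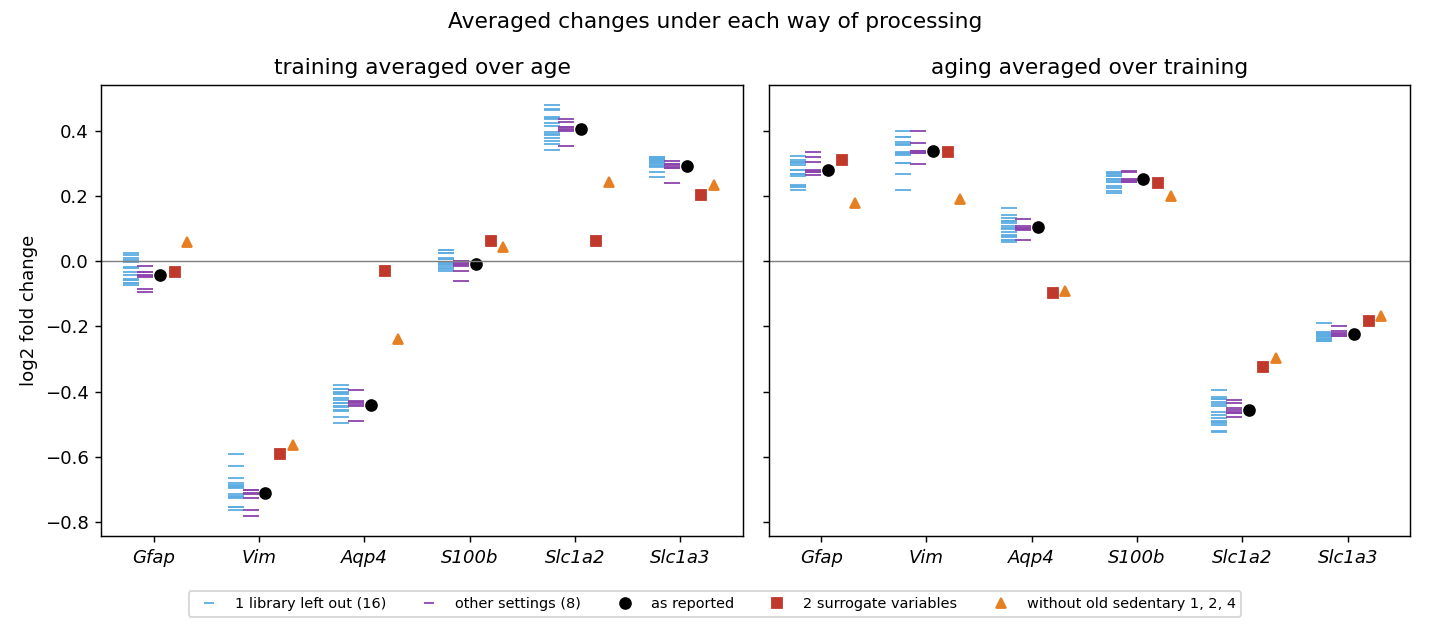
Averaged log2 fold change (vertical axis) of the 6 genes (horizontal axis) for training (left) and age (right), as reported and under each alternative way of processing. Aqp4 for training moves from -0.44 as reported to -0.03 with 2 surrogate variables and -0.24 without old sedentary replicates 1, 2 and 4, while Vim stays between -0.78 and -0.56.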

How the data were processed

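Total RNA from bulk hippocampus was purified (Trizol) and enriched for poly(A) RNA, and a NEBNext Ultra RNA kit, which does not keep strand, gave the libraries, so a gene and an antisense partner cannot be told apart. The labels name 5 libraries per condition and 10 per lane, while 4 per group, 16 in all, were analysed here. No source used here gives the lane of a library, so a part of lanes in the results was not tested. The authors deposited raw counts per Ensembl gene. The submitters' processing notes name the build Rnor_6.0 and the tools TopHat2 2.1.1, HTSeq, SAMtools, Trimmomatic, FastQC and DESeq2. The annotation release and the strand setting are not given in sources used here.

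The tests ran in R 4.3.3 with edgeR 4.0.16: filterByExpr by group, TMM scaling, 1 mean per group over 16 libraries (12 residual degrees of freedom), robust glmQLFit and 2-sided glmQLFTest in 7 contrasts, with Benjamini-Hochberg adjustment over 15035 genes and calls at 0.05. The SE is the fold change divided by the square root of F. Log2 CPM used a prior count of 2. Ratios of raw counts were tested by exact permutation of labels within the other factor (4900 arrangements, smallest p = 0.000408). Genes most like a member were sought at a mean log2 CPM of 1 or more, and only those of Gfap and Slc1a2 are named. Alternatives used DESeq2 1.42.0, limma 3.58.1 and sva 3.50.0. On simulated counts for training averaged over age (14911 genes), the test recovered 38% of the 1.25-fold, 82% of the 1.5-fold and 98% of the 2-fold changes. Only 50 genes were changed at each fold, while 33.9% of genes were called in the data. The simulated libraries were drawn independently, with no shift shared by libraries of a group. These rates may therefore differ from the power of the test on the data. Libraries of a group differed by more than sampling noise (chi-square per degree of freedom at least 4.65). The p-values rest on the spread between libraries of a group, with 1 library per rat. They do not cover a shift shared by all libraries of a group. The 6 genes, the lists and the alternatives were chosen with earlier results of these data known. Lists of other astrocyte genes and of cell type markers were drawn up by symbol and could not be matched to the IDs.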

Additional observations from a re-analysis of the deposited data

Results flagged for a closer look

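Within groups of 4 libraries, 1 of 36 sets of member levels and ratios had a library far from the other 3, by a gap to its nearest neighbour above Dixon's 95% critical value. Chance marks about 1 in 20 such sets. The log2 ratio of Gfap to Vim was 3.12 in old sedentary replicate 2, against 3.44 to 3.50 in the other 3 libraries of that group. That library had the highest level of both genes in its group, 1959.7 CPM for Gfap and 225 CPM for Vim.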

How the results depend on the processing

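The alternatives were other scaling (DESeq2 size factors, library totals), other tools (DESeq2, limma voom), no filter or a stricter one, the 8 libraries of a comparison alone, surrogate variables, a replicate block, and leaving out each library or old sedentary replicates 1, 2 and 4. A single surrogate variable over all tested genes was planned and estimated. Its value was other than 0 in 1 library only (young sedentary replicate 1), so it was set aside and its results are not given. Of 24 changes of sign among single genes, 0 had an adjusted p below 0.05.

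Percentages in this paragraph are shares of all genes called in the same setting. For age in sedentary rats 1 of the 6 genes was called as reported (1.51%). The count was 3 with the DESeq2 Wald test (6.05%) and 2 with the replicate block (3.72%). It was 0 with the 8 libraries alone (0.164%) or 2 surrogate variables (0.0931%), and 0 to 3 with each library left out (0.25% to 13.2%). For age in trained rats (0 as reported, 4.98%) the count was 1 with DESeq2 (8.23%), limma voom (8.97%) and the 8 libraries alone (7.4%). With each library left out it was 0 to 1 (1.56% to 6.91%). For age over training (3 as reported, 10.5%) the count was 5 with the replicate block (12%) and 0 with 2 surrogate variables (3.19%). With each library left out it was 1 to 4 (6.26% to 16.2%). For training, 2 surrogate variables left 0 genes in young rats (2 as reported) and 0 in old rats (4 as reported). The shares were 5.32% against 17.1% in young and 0.02% against 24.1% in old rats. Over both ages 0 were left (4 as reported), with 2.39% against 33.9% of all genes. Without the 3 old sedentary libraries, training in old rats gave -0.36 for Vim, -0.18 for Aqp4, 0.34 for Slc1a2 and 0.16 for Slc1a3. Calls are not counted for that fit, which leaves 1 old sedentary library. Leaving out each library kept the counts for training within 1.5 times.

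Without the 3 libraries the training difference of the Gfap to Slc1a2 ratio was -0.19. With each library left out it ran from -0.55 to -0.40, the age difference of the Slc1a2 to Slc1a3 ratio from -0.29 to -0.16 and that of the Gfap to Vim ratio from -0.14 to 0.019. Changed signs without the 3 libraries were -0.15 for Aqp4 and -0.013 for Vim (age, sedentary), -0.093 for Aqp4 (age over training), 0.11 for Aqp4 (interaction), and 0.043 for S100b and 0.059 for Gfap (training over age). With 2 surrogate variables they were -0.071 and -0.097 for Aqp4 (age in sedentary rats and over training) and 0.063 for S100b (training over age), which DESeq2 size factors put at 3.29e-06. With each library left out, S100b and Gfap for training over age ran from -0.030 to 0.035 and -0.073 to 0.025, Vim for the interaction from -0.049 to 0.33, and Aqp4 for age in trained rats from -0.13 to 0.027. The cause was not tested, except that fewer libraries give fewer samples.

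The labels do not say that a replicate number marks a shared animal, litter or day, so the numbers were not treated as pairs. Not every pair of same-numbered libraries deviated together, and whether the numbers mark a shared batch was not tested. Same-numbered libraries had mean correlations of deviations of 0.04, 0.15, 0.17 and -0.01 for numbers 1 to 4, and 9 of 16 libraries correlated best with their own number, which is a hint of pairing from the data and not from the design. With the replicate block Slc1a2 was called for age in sedentary rats (log2 fold change -0.70, edgeR adjusted p = 0.0430), and Gfap (0.26, edgeR adjusted p = 0.0482) and Vim (0.34, edgeR adjusted p = 0.0455) for age over training. It changed no other call of the 6 genes. The counting error was below the fitted spread between libraries for each of the 6 genes. A relation of the values to depth was not tested.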
